A study of Homo sapiens with 2 samples.

Results

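Genes of the mitotic machinery were described in SNK6 cells, a human NK/T-cell lymphoma line, after exposure to romidepsin with or without sildenafil. A gene was a member when its annotated symbol began with KIF and a digit, CENP, BUB, AURK, NCAP, SKA or MAD2L, or was TPX2, TTK, PLK1, CDC20, CDK1, CCNB1, CCNB2, CCNA2, NUSAP1, ASPM or HMMR. This gave 79 of the 14884 genes named on the array, after 1 antisense gene was left out. The symbols took in more than mitosis. On lists of mitotic roles were 48 members, 25 were kinesins of other roles and 6 matched by name only. The last group holds every remaining member, including MAD2L1BP, which acts on the checkpoint protein MAD2. No probe set was named for a condensin (NCAP) gene, nor for CENPE, CENPF, CENPB, CENPS, TPX2 or ASPM, so these are not analysed here.

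Both groups were SNK6 cultures grown in RPMI-1640 with 10% serum and 500 U/ml interleukin-2, and both received romidepsin, a histone deacetylase inhibitor, for 72 h. One group received romidepsin alone (1 array) and the other romidepsin with sildenafil, a phosphodiesterase inhibitor (1 array). The sample's title abbreviates the second drug, which was taken to be sildenafil, the only other agent in the protocol. Drug doses are not stated in the labels, and neither untreated cells nor cells given sildenafil alone were analysed here. The design asks what the addition of sildenafil changes in cells under romidepsin; with 1 array per group no value has a replicate error, no difference could be tested, and culture, array and treatment cannot be told apart.

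The values are log2 signals per probe set, and each difference was taken as the value with sildenafil minus the value without it. The filter kept a gene if either array reached 3.91, the table's median, and 10081 named genes passed. Beyond 1.5-fold lay 1.99% of these (1.02% higher and 0.972% lower with sildenafil), and beyond 1.2-fold 19.3% (9.71% higher and 9.63% lower). The natural killer cell markers perforin (PRF1, 8.83 without and 8.81 with sildenafil) and NCAM1 (6.63 and 6.54) passed the filter, as did all 8 named markers of that list. Their differences ran from -0.27 (NKG7) to 0.47 (TBX21) with a median of -0.01, and their summed linear signal, set mostly by the brightest, was 1085 without and 1027 with sildenafil. Of 4 named T cell markers 2 passed, with a summed signal of 49.0 and 47.6. Of 6 monocyte or macrophage markers 3 passed (166 and 159), of 4 fibroblast or epithelial markers 3 (199 and 225), and both B cell markers did (73.9 and 68.4). The part of other cells in the differences below was not tested.

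Mitosis is driven by cyclin-dependent kinase 1 with its cyclins, by Polo-like kinase and by Aurora kinases. Kinesins use ATP to walk along or take apart microtubules and so build the spindle. Each centromere carries a layer of constitutive proteins on which the kinetochore assembles. The kinetochore holds the microtubule ends, and the spindle checkpoint delays anaphase until every chromosome is attached. Transcripts of many of these genes peak in G2 and mitosis, so in a bulk sample fewer dividing cells and less RNA per dividing cell cannot be told apart.

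For most members the signals with and without sildenafil were close. Of the 79 members 71 passed the filter and 8 did not. Of the 71, 60 lay within 1.2-fold and 15.5% beyond it, against 19.3% of all named genes. Those beyond it were 4 members higher and 7 members lower on the array with sildenafil. At 1.5-fold 1 member was higher, AURKC, and 0 were lower, against 1.02% and 0.972% of all named genes. The shares at 1.2-fold were 5.63% higher and 9.86% lower, to be read against the 9.71% and 9.63% of all named genes. This balance depended on the scaling: quantile normalization gave 6 higher and 4 lower, and lowess centring 5 and 5. The median difference was -0.02 over the members and -0.01 over all named genes past the filter, and that of the members turned to 0.04 under quantile normalization and to 0.00 under lowess centring. Median absolute differences were 0.08 and 0.12 respectively.

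The share of genes beyond 1.2-fold was smaller at higher signal. In deciles 9 and 10 of the named genes, with a mean signal of at least 7.32, 5.61% lay beyond 1.2-fold, and 40 members fell in that range, of which 3 (7.50%) lay beyond it. In deciles 6 to 8, from a mean signal of 5.77, the shares were 11.8% of named genes and 16.7% of 18 members. In deciles 1 to 5 they were 29.4% of named genes and 38.5% of 13 members. Outside the central 95% of named genes in their own decile of signal lay 5 members, 7.04% of the 71, a share near the 5% of all genes that this range leaves out. They were CENPK, CENPC, SKA3, CENPI and AURKC, of which AURKC passed the filter only through the array where it was high.

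**Figure D1:**
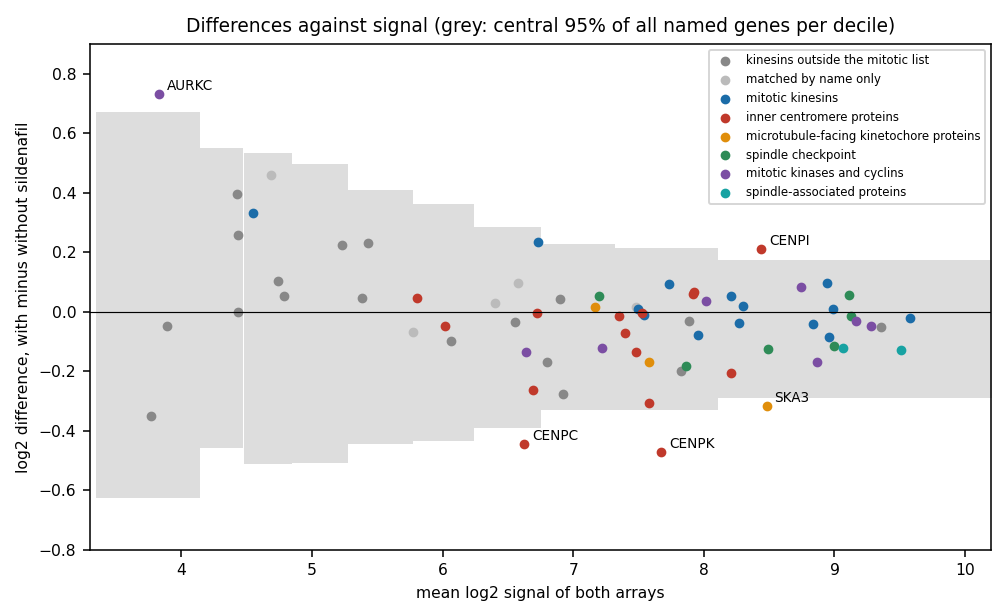
Difference (log2 signal with sildenafil minus without, vertical axis) against the mean log2 signal of both arrays (horizontal axis) for the 71 members past the filter, 1 point per gene, coloured by role; the grey band is the central 95% of all named genes in each decile of signal. The band narrows as signal rises, CENPK, CENPC and SKA3 lie below it, and CENPI and AURKC lie above it.

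The mitotic kinesins had the smallest median absolute difference of the role lists, 0.05. All 14 listed genes were named and past the filter, 8 higher and 6 lower (12 and 2 under quantile normalization), with a median of 0.01. The lower share was 42.9%, against 52.4% of all named genes past the filter (14.3% against 44.4% under quantile normalization). KIF11 (Eg5), which slides antiparallel microtubules apart to form the bipolar spindle, had a log2 signal of 9.59 without and 9.57 with sildenafil. KIF15, which can share that task, had 8.29 and 8.25. For both motors the arrays were nearly level.

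The kinesins of the central spindle and cytokinesis lay as close. KIF23 (MKLP1), a subunit of centralspindlin, had 8.29 without and 8.31 with sildenafil. KIF20A (MKLP2), which brings Aurora B to the midzone, had 7.69 and 7.78, and its relative KIF20B had 8.997 and 8.91. KIF14, which recruits citron kinase to the midbody, had 8.85 and 8.81. Their differences ran from -0.08 to 0.09 and did not share a direction.

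Chromosome-arm and microtubule-end kinesins followed the same pattern. KIF22 (Kid), a chromokinesin that pushes chromosome arms outward, had 8.18 without and 8.23 with sildenafil. KIF4A, a chromokinesin that also works with PRC1 at the midzone, had 7.54 and 7.53. Its near-identical relative KIF4B had 6.61 and 6.85, a difference of 0.24, and the probe sets of this pair may read each other's transcripts. KIF18A, which dampens chromosome oscillations, had 7.996 and 7.92, while KIF18B had 7.49 and 7.50. The kinesin-13 members, which take microtubules apart, were level for KIF2A (8.98 and 8.99) and nearly so for KIF2C (MCAK; 8.89 and 8.99). KIF2B, of the same family, had 4.38 and 4.72, 1.26-fold higher and the only one of the list beyond 1.2-fold, joined by KIF4B (0.29) under quantile normalization; at KIF2B's decile of signal 27.1% of named genes lay beyond 1.2-fold.

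**Figure D2:**
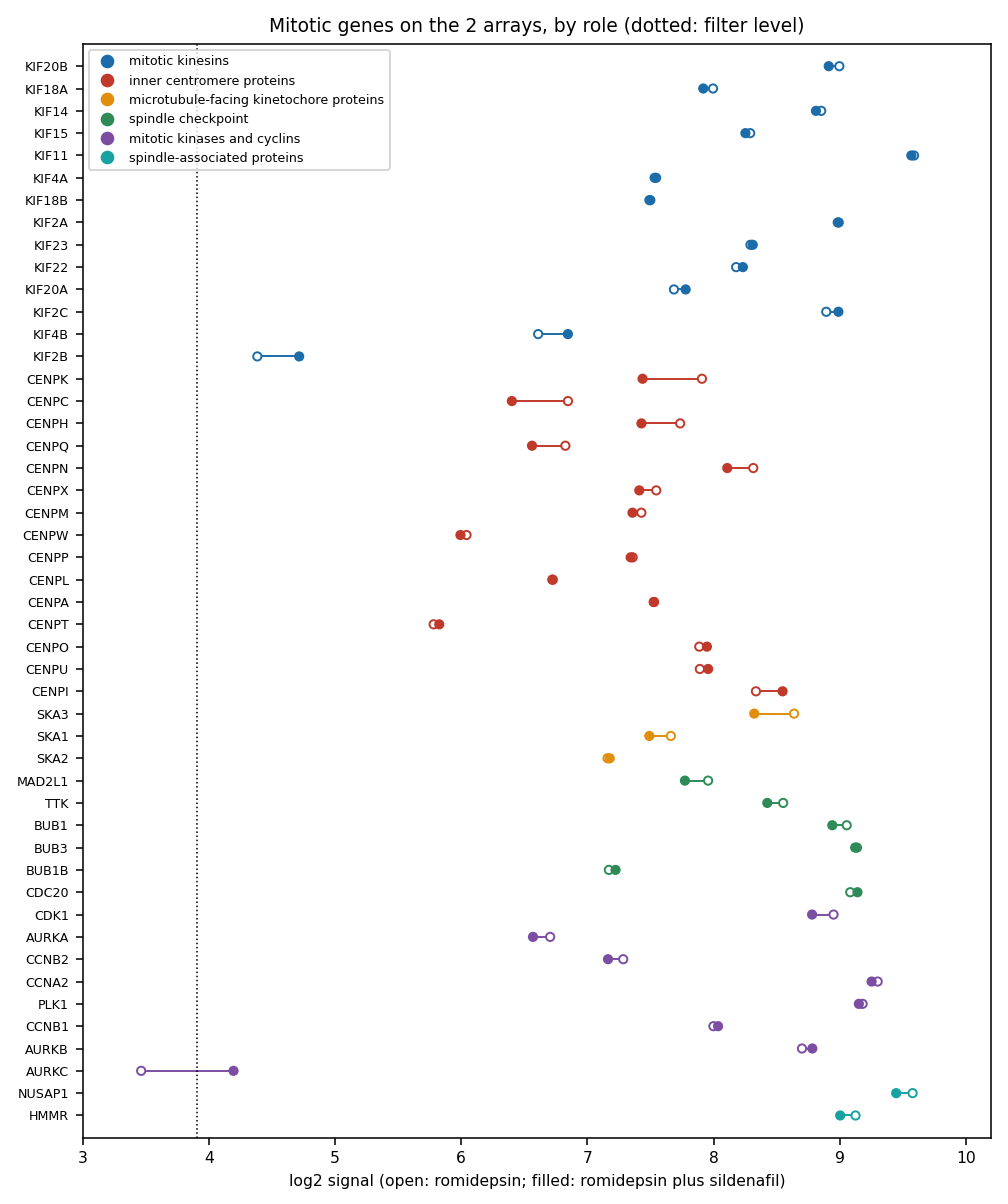
Log2 signal (horizontal axis) of the 48 members on the role lists, 1 row per gene; open points are romidepsin alone and filled points romidepsin plus sildenafil, 1 array each, and the dotted line is the filter level of 3.91. Most mitotic kinesins are nearly superimposed, apart from KIF4B and KIF2B, which lie right with sildenafil; CENPK, CENPC and CENPH lie left with sildenafil, and AURKC crosses the filter level.

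The genes of the inner centromere proteins spread more widely than the mitotic kinesins, with an SD across genes of 0.20 against 0.12. Their median signal was lower, at 7.48 against 8.24, and the SD of all named genes was larger at lower signal (0.14 in decile 9, 0.12 in decile 10). How much of the contrast follows signal was not tested. Of 17 listed genes 15 were named, all past the filter, with a median of -0.05, which was -0.01 under quantile normalization. Of these 11 (73.3%) were lower, where 52.4% of all named genes past the filter and 60.3% of those in deciles 9 and 10 were lower. Under quantile normalization and under lowess centring 8 were lower and 7 higher. At 1.2-fold 4 were lower (26.7%) and 0 higher, against 9.63% and 9.71% of all named genes. The 4 became 3 under median or lowess centring and 2, CENPK and CENPC, under quantile normalization. CENPA, the histone H3 variant that marks the centromere, had a signal of 7.53 on each array. CENPC, which binds CENP-A nucleosomes and links them to the outer kinetochore, had 6.85 without and 6.40 with sildenafil, 1.36-fold lower. The CENPC signal was thus lower while that of CENPA was level.

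Partners within the CENP-H/I/K/M complex differed in opposite directions. CENPK showed the most negative difference of all members, with 7.91 without and 7.44 with sildenafil, 1.39-fold lower. CENPH had 7.74 and 7.43, 1.24-fold lower, but came within 1.2-fold under quantile normalization (-0.25). CENPM lay between, at 7.43 and 7.36. CENPI was higher, at 8.34 without and 8.55 with sildenafil, a difference of 0.21 against a central 95% of -0.29 to 0.17 for named genes of its signal. The complex therefore showed 3 members lower and 1 higher, where 60.3% of all named genes in deciles 9 and 10 were lower. CENPM, at -0.07 (-0.02 under quantile normalization), and CENPI, at 1.16-fold, lay within 1.2-fold. CENPK alone lay beyond 1.2-fold under every scaling tried.

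The CENP-O/P/Q/U group, which helps to recruit Polo-like kinase to the kinetochore, was mostly level. CENPQ had 6.83 without and 6.56 with sildenafil, 1.201-fold lower, and dropped within 1.2-fold under all 3 scaling alternatives. CENPO had 7.89 and 7.95, CENPU 7.89 and 7.96, and CENPP 7.36 and 7.34. Of the CENP-L/N pair, which reads the CENP-A nucleosome, CENPN had 8.31 and 8.11 and CENPL 6.73 and 6.72. The histone-fold proteins CENPT (5.78 and 5.83), CENPW (6.04 and 5.99) and CENPX (7.55 and 7.41) also stayed within 1.2-fold.

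The SKA complex, which keeps kinetochores on moving microtubule ends, held 1 member beyond 1.2-fold. SKA3 had 8.64 without and 8.32 with sildenafil, 1.24-fold lower, where the central 95% of named genes of like signal ran from -0.29 to 0.17. SKA1 had 7.66 and 7.49, while SKA2 was level at 7.16 and 7.18. Each of the 3 subunits rests on a single probe set.

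**Figure D3:**
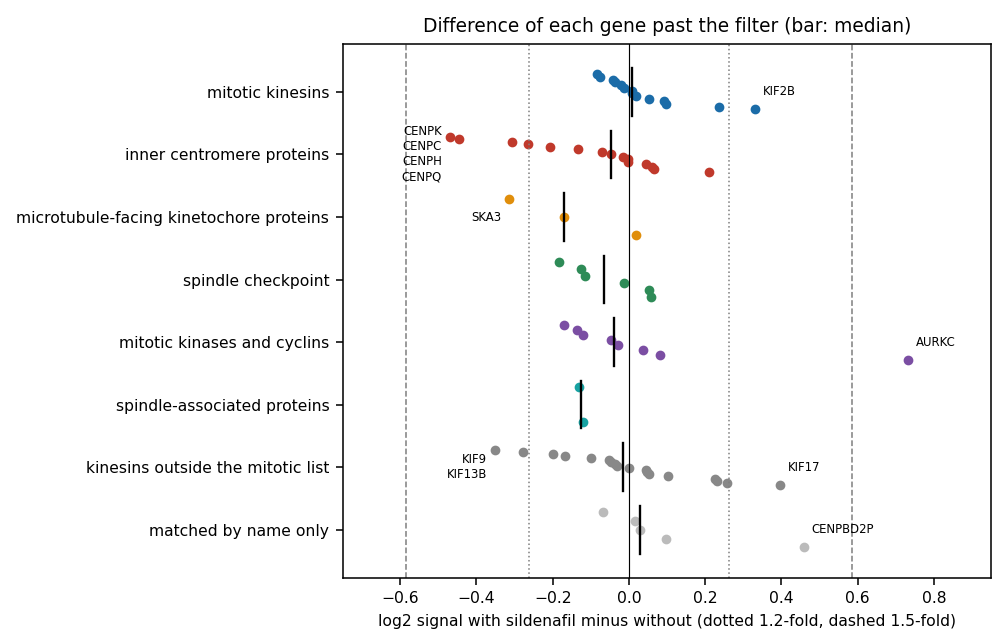
Difference (log2 signal with sildenafil minus without, horizontal axis) of each member past the filter, 1 point per gene, by role list; black bars are list medians, dotted lines 1.2-fold and dashed lines 1.5-fold. Of the named points beyond 1.2-fold, 4 belong to the inner centromere proteins, all lower, and AURKC alone passes 1.5-fold.

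Annotated promoter windows are shown for the members outside the range of their signal other than AURKC, and for KIF11, whose signal was level. Genes at the edge of the range and a gene near 0 can so be read side by side, with a limit for CENPI given below. Many genes of mitosis share promoter elements, the NF-Y box and the cell cycle genes homology region (CHR), through which the DREAM and MuvB complexes act. The sequences are RefSeq's, from 250 bases before to 50 bases after an annotated start, on the gene's own strand, in build GRCh38.p14. They lie at chr5:65563119-65563418 (minus strand), chr4:67545454-67545753 (minus), chr13:21176503-21176802 (minus), chrX:101100808-101101107 (plus) and chr10:92592880-92593179 (plus). Capitals mark matches to CCAAT (NF-Y box), TTTGAA or TTTAAA (CHR cores), searched on both strands.
CENPK: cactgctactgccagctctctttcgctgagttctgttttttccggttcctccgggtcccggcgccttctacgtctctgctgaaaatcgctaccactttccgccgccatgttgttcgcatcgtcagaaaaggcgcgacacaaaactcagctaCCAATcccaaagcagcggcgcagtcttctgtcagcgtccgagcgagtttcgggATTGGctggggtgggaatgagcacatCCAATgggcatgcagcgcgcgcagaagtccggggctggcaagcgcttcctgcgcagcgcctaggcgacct
CENPC: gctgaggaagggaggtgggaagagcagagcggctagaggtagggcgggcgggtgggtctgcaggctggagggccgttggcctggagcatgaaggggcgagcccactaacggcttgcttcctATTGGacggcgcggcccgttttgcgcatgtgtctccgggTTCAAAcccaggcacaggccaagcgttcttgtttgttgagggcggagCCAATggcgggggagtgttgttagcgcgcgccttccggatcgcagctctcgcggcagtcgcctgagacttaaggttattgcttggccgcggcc
SKA3: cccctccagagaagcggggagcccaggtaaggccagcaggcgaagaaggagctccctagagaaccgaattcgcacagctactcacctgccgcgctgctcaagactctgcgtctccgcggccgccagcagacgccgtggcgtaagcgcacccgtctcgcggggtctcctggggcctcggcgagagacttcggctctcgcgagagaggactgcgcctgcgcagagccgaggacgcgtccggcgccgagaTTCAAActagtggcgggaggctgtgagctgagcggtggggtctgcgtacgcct
CENPI: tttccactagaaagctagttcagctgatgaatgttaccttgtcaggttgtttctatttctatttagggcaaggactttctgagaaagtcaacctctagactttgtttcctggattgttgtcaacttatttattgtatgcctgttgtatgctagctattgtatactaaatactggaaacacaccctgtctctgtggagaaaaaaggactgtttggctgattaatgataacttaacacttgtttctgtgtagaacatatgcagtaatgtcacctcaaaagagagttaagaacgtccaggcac
KIF11: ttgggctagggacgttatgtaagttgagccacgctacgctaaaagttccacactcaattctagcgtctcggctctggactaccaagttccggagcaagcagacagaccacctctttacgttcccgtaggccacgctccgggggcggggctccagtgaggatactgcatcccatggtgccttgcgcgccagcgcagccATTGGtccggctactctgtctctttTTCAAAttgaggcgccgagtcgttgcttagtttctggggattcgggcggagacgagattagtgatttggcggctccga
The CENPK window held 3 NF-Y boxes, 99, 46 and 20 bases before the start, and no CHR core. That of CENPC held 2 NF-Y boxes and 1 CHR core, SKA3's held 1 CHR core and no NF-Y box, and CENPI's held neither. Bases before CENPI's annotated start end in tttctgtgtag, as an intron can end, and whether transcription begins there was not checked. The CENPI window may not be the gene's promoter, so no comparison with the others rests on it. KIF11, with level signals, had an NF-Y box 53 bases and a CHR core 28 bases before the start. The 3 lower genes thus had no arrangement of these letters in common.

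Over all members with a RefSeq promoter (65 of 79 genes, 80 promoters, since some genes have several), the shares with a match differed between the mitotic lists and the other kinesins. Of 47 promoters of genes on the role lists 72.3% held an NF-Y box, 57.4% a CHR core and 44.7% both. Among all 35116 RefSeq promoters of the same length the shares were 34.6%, 24.0% and 9.27%. Of 27 promoters of the kinesins outside the mitotic list 33.3% held an NF-Y box, 7.41% a CHR core and 3.70% both. Within the role lists a CHR core was found in 73.3% of 15 mitotic kinesin promoters and 28.6% of 14 promoters of inner centromere proteins. A letter match is a description and not a bound site, and several promoters of a gene can overlap. Whether each annotated start is where transcription begins was not checked, and the CENPI window counts among the 14.

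**Figure D4:**
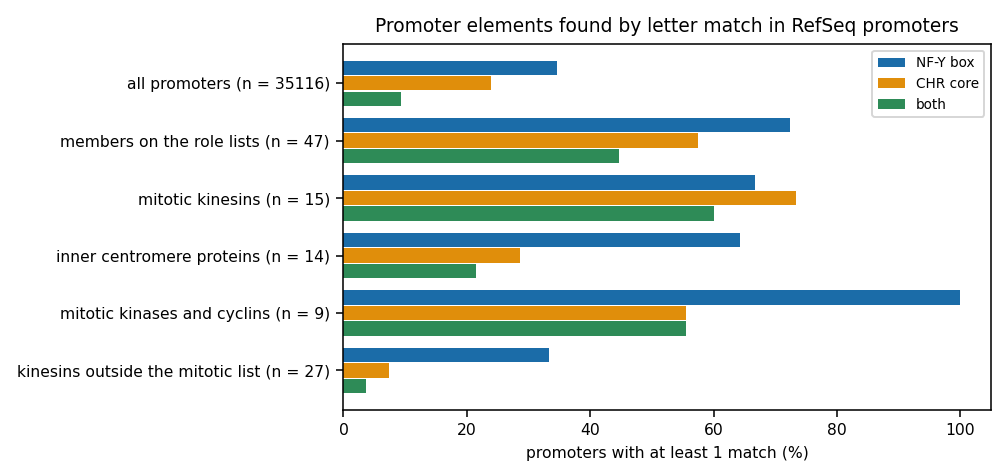
Share of RefSeq promoters (percent, horizontal axis) with at least 1 NF-Y box, at least 1 CHR core, or both, for all promoters and for sets of members; n is the number of promoters. All 9 promoters of the mitotic kinases and cyclins hold an NF-Y box, and 1 of 27 promoters of the other kinesins holds both elements.

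The spindle checkpoint genes all lay within 1.2-fold. In deciles 8 to 10, where these genes fell, only 3.87% to 7.34% of named genes lay beyond that fold. Of the 6, 4 were lower and 2 higher, with a median of -0.06 (3 each way and -0.01 under quantile normalization). The lower share was 66.7%, against 52.4% of all named genes past the filter and 60.3% of those in deciles 9 and 10. MAD2L1 (MAD2), which is loaded onto CDC20 to block the anaphase-promoting complex, had 7.96 without and 7.77 with sildenafil. TTK (MPS1), the kinase that starts the signal, had 8.55 and 8.43, and BUB1, a kinase and scaffold at the kinetochore, had 9.06 and 8.94. Their differences lay between -0.18 and -0.11. BUB3, which brings both BUB proteins to the kinetochore, was level at 9.14 and 9.12. BUB1B (BUBR1) had 7.17 and 7.22, and CDC20, the activator that the checkpoint holds back, had 9.08 and 9.14.

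The kinases and cyclins of mitotic entry lay within 1.2-fold except for AURKC, with a median absolute difference of 0.10. Of all named genes past the filter 19.3% lay beyond that fold, and 5.61% of those in deciles 9 and 10. CDK1, the kinase of mitotic entry, had 8.95 without and 8.78 with sildenafil. Its partners cyclin A2 (CCNA2; 9.30 and 9.25) and cyclin B1 (CCNB1; 7.999 and 8.04) lay closer, and cyclin B2 (CCNB2) had 7.28 and 7.16. PLK1, which drives centrosome maturation and mitotic exit, had 9.18 and 9.15. The list's median was -0.04 over 8 genes, and 0.04 under quantile normalization.

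The Aurora kinases differed among themselves. AURKA, the kinase of spindle poles, had 6.71 without and 6.57 with sildenafil, and AURKB, of the chromosomal passenger complex, had 8.70 and 8.78. AURKC, best known from germ cells, had 3.46 without and 4.20 with sildenafil, 1.66-fold higher. It passed the filter only through the array with sildenafil and was left out when both arrays, or their mean, had to reach 3.91. In its decile, the dimmest, 7.93% of named genes lay beyond 1.5-fold.

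The spindle-associated genes were each lower by about the same amount. NUSAP1, which binds and bundles spindle microtubules, had 9.58 without and 9.45 with sildenafil. HMMR, which acts at spindle poles and is also a hyaluronan receptor, had 9.12 and 9.003. Both lay within 1.2-fold and inside the central 95% for their signal. Of all named genes in deciles 9 and 10, 60.3% were lower. Under quantile normalization the differences were -0.07 for NUSAP1 and -0.06 for HMMR.

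The kinesins outside the mitotic list carry cargo or act in cilia and signalling, and served as relatives of the mitotic motors. Of 25 named, 18 passed the filter, 9 higher and 9 lower, with a median of -0.02 (11 and 7, with 0.02, under quantile normalization). Of all named genes past the filter 52.4% were lower. KIF9, with 3.94 without and 3.59 with sildenafil, was 1.28-fold lower and fell below the filter level on the second array. KIF13B, a motor for membrane cargo, had 7.06 and 6.78, 1.21-fold lower, and came within 1.2-fold under quantile normalization (-0.23) and lowess centring (-0.24). KIF17, a motor of dendrites and cilia, had 4.23 and 4.63, 1.32-fold higher. KIF12 had 4.31 and 4.56. Of these only KIF13B was above a signal of 5 on both arrays. Beyond 1.2-fold lay 16.7% of the 18, against 19.3% of all named genes past the filter. At the decile of signal of each gene, it was 43.6% of named genes for KIF9, 30.0% for KIF17 and 7.24% for KIF13B. KIF5B, the conventional kinesin of most cells, had 9.38 and 9.33, and KIF3A and KIF3B, the motor pair of intraflagellar transport, had 7.93 and 7.73, and 6.11 and 6.02. KIF26B (3.91 and 3.86) passed through the romidepsin array only.

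The 7 kinesins below the filter were KIF1A, KIF5A, KIF5C, KIF6, KIF13A, KIF16B and KIF25, with signals between 2.23 (KIF6) and 3.74 (KIF1A) on the romidepsin array. KIF1A, KIF5A and KIF5C are known mainly from neurons. Among the other kinesins past the filter, differences ran from -0.17 (KIF21A) to 0.23 (KIF26A).

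Members that matched by name only held 1 gene beyond 1.2-fold. The pseudogene CENPBD2P had 4.46 without and 4.91 with sildenafil, 1.37-fold higher, at a signal where the central 95% of named genes ran from -0.51 to 0.53. SKAP1, a lymphocyte adaptor unrelated to the SKA complex, was level at 7.47 and 7.49, and SKAP2 had 6.53 and 6.63. MAD2L2 (REV7), a MAD2 relative with roles in DNA repair, had 5.81 and 5.74, and MAD2L1BP, which removes MAD2 from its targets, had 6.39 and 6.42. CENPV (3.26 and 3.27) was below the filter.

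Of the members 77 rest on 1 named probe set and 2 on several. KIF1B had a second probe set with 4.25 and 4.35, a difference of 0.10 beside 0.04 for the brighter one. KIF27 had 3, with differences of 0.05, 0.07 and 0.03, of which the first alone was past the filter. The probe sets of each gene thus shared a direction and none reached 1.2-fold.

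Other genes of the same machinery, which the symbols did not select, were set beside the members. Of 99 listed genes 76 were named, all past the filter, with 49 lower (64.5%), 27 higher and a median of -0.04. Of all named genes past the filter 52.4% were lower, with 59.8% in deciles 6 to 8 and 60.3% in deciles 9 and 10. Median differences of all named genes in these ranges were -0.04 and -0.03. Quantile normalization turned the partners to 31 lower (40.8%, against 44.4% of all named genes), 45 higher and a median of 0.02. At 1.2-fold 6 were lower (7.89%) and 1 higher (1.32%), against 9.63% and 9.71% of all named genes. Under quantile normalization MASTL alone was lower at that fold, and UBE2S and INCENP were higher. Among kinetochore and centromere partners (16 genes, median -0.07), NDC80, the microtubule-binding arm of the outer kinetochore, had 7.92 without and 7.60 with sildenafil. SPDL1, which brings dynein to kinetochores, had 7.68 and 7.38. These lay beyond 1.2-fold, and INCENP, the scaffold of the passenger complex, had 7.02 and 7.26.

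In the anaphase-promoting complex and mitotic entry list (24 genes, median -0.03) the differences ran both ways. MASTL (Greatwall), which restrains the phosphatase that opposes CDK1, had 7.71 without and 7.31 with sildenafil. CDC25C, which activates CDK1, had 6.66 and 6.36, and ANAPC15 had 5.85 and 5.55. UBE2S, which extends ubiquitin chains on substrates of the complex, was the only one of the 76 at least 1.2-fold higher, with 6.09 and 6.57. Among regulators of mitotic transcription (11 genes, median -0.01), LIN9, a MuvB subunit, had 6.66 and 6.38, while FOXM1 (8.14 and 8.13), MYBL2 (8.63 and 8.61) and the proliferation marker MKI67 (10.44 and 10.43) were level.

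Spindle and cytokinesis partners (13 genes) and SMC and cohesin genes (12 genes) held no gene beyond 1.2-fold. Their median signals were 7.47 and 8.35. Of all named genes 5.61% lay beyond that fold in deciles 9 and 10, and 11.8% in deciles 6 to 8. NEK2, a centrosomal kinase, had 7.14 without and 7.04 with sildenafil, and CLASP2, which binds microtubule ends, had 6.56 and 6.48. The condensin partners SMC2 (8.28 and 8.21) and SMC4 (9.60 and 9.55) were the nearest measured genes to the unnamed NCAP subunits. CDCA5 (sororin), which protects cohesion, had 6.49 and 6.25, and ESCO2, a cohesin acetyltransferase, 8.18 and 8.04.

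**Figure D5:**
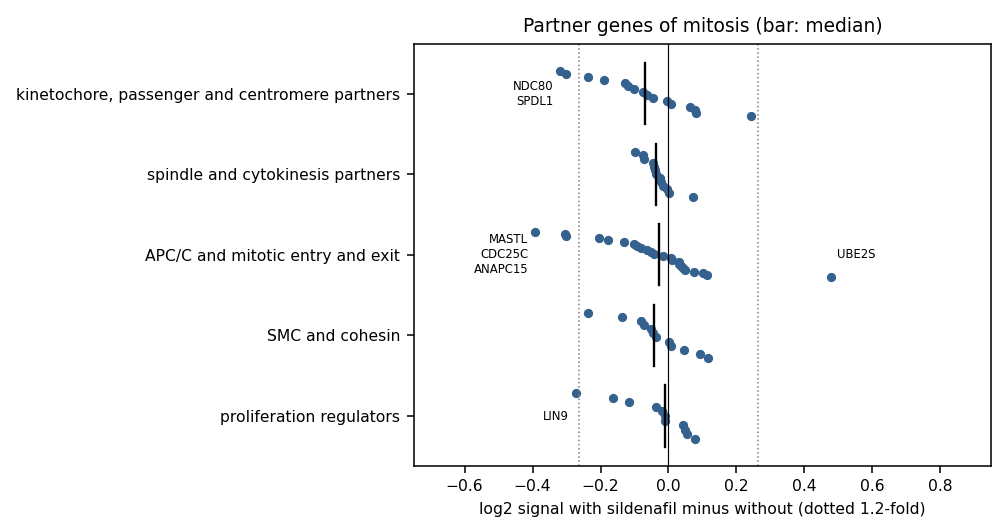
Difference (log2 signal with sildenafil minus without, horizontal axis) of 76 partner genes of mitosis that were not members, 1 point per gene, by list; black bars are list medians and dotted lines 1.2-fold. NDC80, SPDL1, MASTL, CDC25C, ANAPC15 and LIN9 lie left of the 1.2-fold line and UBE2S lies right of it.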

How the data were processed

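Per the labels' protocols, RNA from each culture was whole-transcript amplified and labelled with biotin before array hybridisation (2 samples). The authors' deposited table holds log2 signals of 53617 probe sets, 1 column per sample, with medians of 3.89 (romidepsin) and 3.92 (with sildenafil), not centred on 0; the log base was inferred from the range (0.79 to 13.05), and no source used here gives the summarisation or normalization. Sorted, the columns differed by at most 0.15, so a shift shared by most genes would not show, and all differences are relative to other genes. The number of arrays limits the precision.

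GEO's platform annotation named 16098 probe sets. The probe set with the highest mean stood for a gene, and levels of different genes were set only against the filter and the deciles of signal. All 79 Entrez identifiers of members matched RefSeq, with 0 changed symbols. No gene coordinates are given because the values name no build. Members, lists, the folds of 1.5 and 1.2 and the tests were chosen with earlier results of these data known. All members on role lists, others beyond 1.2-fold or among the 4 largest differences, and up to 2 further partners per list were named. Further members off the role lists, such as KIF5B, KIF3A and SKAP1, were named outside this rule. FOXM1, MYBL2, MKI67, SMC2, SMC4 and the promoters to print were chosen after the values were seen. Computations, tested on simulated data, used Python 3.11.15, numpy 2.4.6, pandas 2.3.3, statsmodels 0.14.6 and matplotlib 3.10.9.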

Additional observations from a re-analysis of the deposited data

How the results depend on the processing

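The 8 alternatives were no filter, a filter on the mean or on both arrays, median centring, quantile normalization, lowess centring (span 0.3), the mean over a gene's probe sets and its dimmest probe set. A median or difference was taken as moved when it shifted by at least 0.1 on the log2 scale, a width chosen because no replicate spread exists. No list median moved that far (at most 0.08), and that of all members ran from -0.03 (role lists alone) to 0.04 (quantile normalization). The width was larger than most of these medians, so a change of sign could pass as not moved. The median of mitotic kinases and cyclins went from -0.04 to 0.04 under quantile normalization. The count of members at least 1.5-fold higher went from 1 to 0 with a filter on the mean of both arrays and to 0 with one on both arrays, because AURKC no longer passed. The count at least 1.2-fold lower went from 7 to 4 with quantile normalization, and that of members higher from 4 to 6. Of the 11 members beyond 1.2-fold, CENPH (highest value -0.25), CENPQ (-0.21) and KIF13B (-0.23) came within it under at least 1 scaling. Lowess centring, which subtracts the trend of the difference along signal, moved AURKC to 0.62, KIF9 to -0.47 and KIF26B to -0.15. Each of these lies in the dimmest decile and moved down. What made the trend was not tested. The sign was checked only for differences beyond 1.2-fold, and none changed, but the shifts seen here were too small to turn them. Among smaller differences signs did turn, as for KIF11, from -0.02 to 0.04 under quantile normalization. No paired analysis was possible because each group holds 1 array, and no replicate could be left out.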
